A study of Bos indicus with 11 samples.

Results

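The transcripts of 10 genes of the transforming growth factor beta (TGF-beta) family were described in endometrial biopsies of Nelore cows, a Bos indicus beef breed. The genes are the ligands TGFB1, TGFB2, TGFB3, BMP2, BMP4 and BMP7, the activin and inhibin subunits INHBA and INHBB, and the secreted inhibitors FST and GREM1. They were taken as the rows whose gene symbol equals one of these names, and 10 of 10 were found, each in 1 row, among the 24616 genes listed. The study asked whether the uterine transcriptome on day 6 after artificial insemination (AI) differs between cows that were later found pregnant (P) and cows that were not (NP). All cows were healthy and multiparous, and all had their estrus synchronized before AI. The biopsy came from the horn opposite the corpus luteum. After the pregnancy diagnosis on day 30, cows of both outcomes were chosen for a narrow range of plasma progesterone and for ovulation seen by ultrasound soon after AI. A further NP sample was omitted by the study because its reads did not align well. The table holds 6 P and 5 NP cows, and each cow was 1 sample. RNA-Seq gave between 9290949 and 13508711 reads on genes in the P cows and between 9783673 and 13569085 in the NP cows. The values are counts that the authors divided by a size factor per cow, called normalized counts here, and 1 read was worth 0.784 to 1.14 normalized counts. Levels were compared between cows and not between genes, since gene lengths were not used. In this bulk tissue, fewer cells of a type and less RNA per cell cannot be told apart.

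The ligands of this family are secreted dimers that bind pairs of type I and type II serine/threonine kinase receptors. TGF-betas and activins signal mainly through SMAD2 and SMAD3, and bone morphogenetic proteins (BMPs) through SMAD1, SMAD5 and SMAD9. Secreted antagonists hold the ligands away from the receptors: follistatin, encoded by FST, binds activins and several BMPs, and gremlin, encoded by GREM1, binds BMPs. In the uterus the family is known for roles in gland formation, stromal cell differentiation, extracellular matrix and the acceptance of the embryo.

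FST and BMP4 were the members with the largest difference towards the NP cows among those tested. The mean of FST was 243 normalized counts ± 294 (SD, n = 6) in P and 796 ± 286 (SD, n = 5) in NP, and that of BMP4 was 460 ± 199 (SD, n = 6) in P and 894 ± 270 (SD, n = 5) in NP. TGFB1 was also higher in NP and TGFB2 was higher in P. For TGFB3, BMP2, BMP7, INHBA and INHBB the difference was small against the spread among cows, and GREM1 was close to the limit of detection. None of the 10 genes passed the threshold of the test across all genes, and the groups overlapped in each of them.

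The test was limma on log2(normalized count + 1) over the 15081 genes that averaged 5 or more normalized counts, followed by the Benjamini-Hochberg adjustment at 0.1. Log2 fold changes are NP minus P. Limma called 0 of the 15081 genes, with 1182 genes (7.84%) at an unadjusted p-value under 0.05. Run on whole reads recovered from the table, DESeq2 called 201 genes (1.33%), while edgeR and limma-voom each called 0. Of the 10 members, 9 passed the filter and 4 had an unadjusted p-value under 0.05 with limma (TGFB1, BMP4 and FST higher in NP, TGFB2 higher in P), which is 44.4% of those tested against 7.84% of all genes. By direction the background was 5.49% higher in NP and 2.35% higher in P. The members were chosen with earlier results of these data known, so their share is not independent evidence. The median log2 fold change was 0.18 over the 9 members and 0.00 over all genes tested. DESeq2 called 0 members. BMP4 is named in the study's text among genes of terms enriched in the NP group of these same samples, so its direction is not independent evidence. Those terms were drawn from the genes the study identified in each group, so the study appears to have called BMP4. The DESeq2 fit here gave BMP4 an adjusted p-value of 0.104, short of the threshold.

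Cow P617 is pregnant by its sample label, although a supplementary list of the study names it as non-pregnant, and it was kept as P. P617 and P1541 also stood apart in tissue makeup. Their summed normalized counts over 9 rows of smooth muscle markers were 643770 and 476082, against 79901 to 189909 in the other P cows and 39459 to 268283 in the NP cows, where NP638 was highest. None of the epithelium, stroma, endothelium, leukocyte and smooth muscle markers was at 0 in any cow. The 11 epithelium markers, which define the glands and the lining of the endometrium, summed to 2399 in P617 and to between 11100 and 29775 in the other cows. Of these 11, 10 were higher in NP on average and 0 had an unadjusted p-value under 0.05, with a median log2 fold change of 0.30. Without P617 and P1541 this median turned to -0.46, and 3 of the 11 had an unadjusted p-value under 0.05, all higher in P. The main results are therefore also given without P617 and P1541. Without P617 alone, TGFB1, BMP4 and FST had an unadjusted p-value under 0.05 with limma, with log2 fold changes of 0.67, 0.86 and 2.33, and TGFB2, at -0.33, did not.

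**Figure D1:**
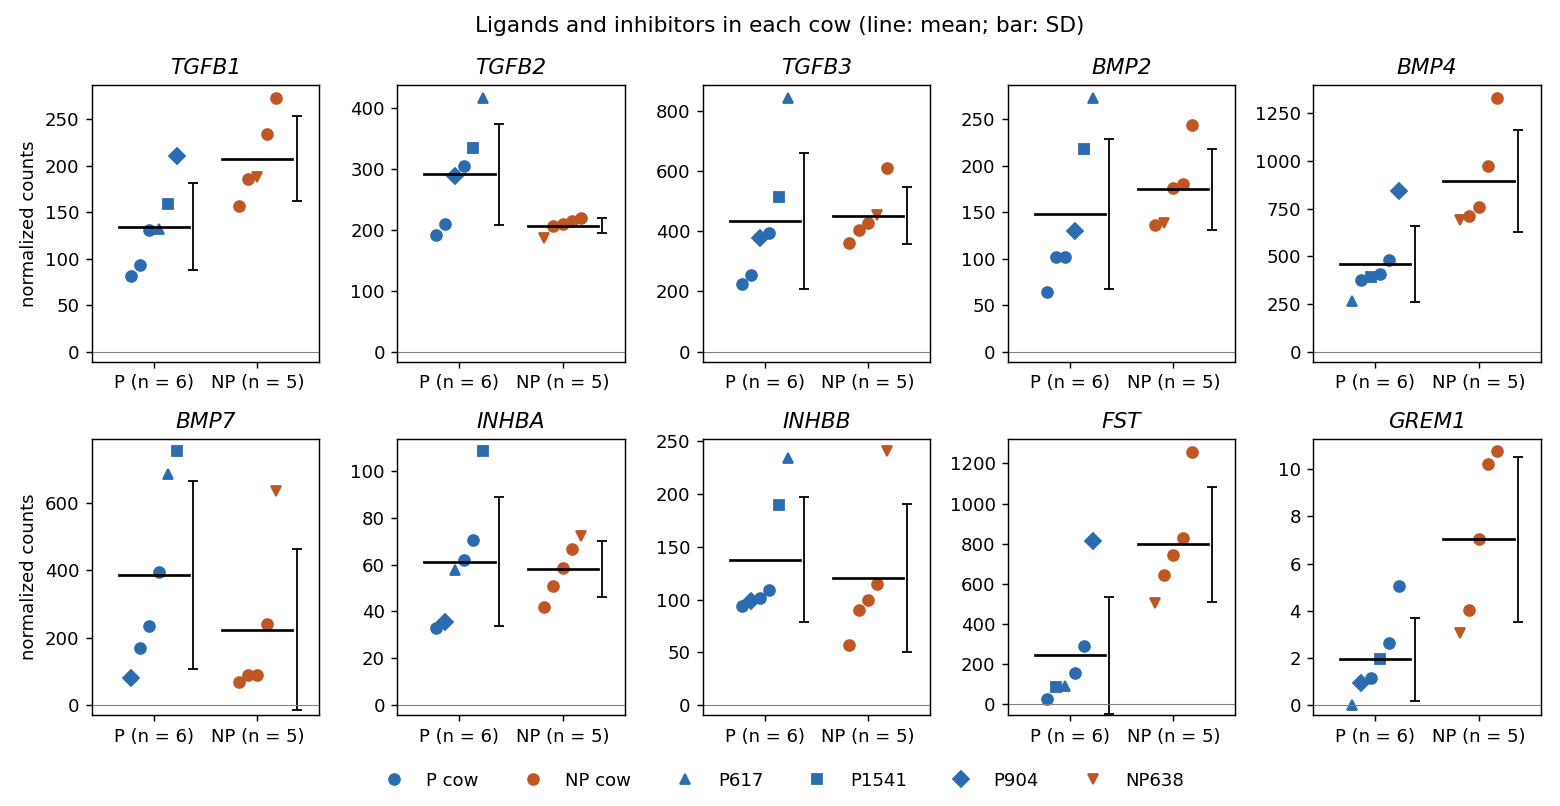
Normalized counts (vertical axes, linear, each panel on its own scale) of the 10 genes in each P cow and NP cow, with 1 point per cow sorted by value within a group, the mean as a line and the SD as a bar. For FST and BMP4 the P cow P904 lies among the NP cows while the other 5 P cows lie below all NP cows, and for BMP7 and INHBB the cows P617, P1541 and NP638 are the highest.

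Of the inhibitors, FST encodes follistatin, which binds activins almost irreversibly. In the P cows FST was at 24.0 (P1631), 84.2 (P1541), 89.2 (P617), 156 (P2396), 291 (P1753) and 812 (P904) normalized counts. In the NP cows it was at 503 (NP638), 645 (NP2541), 742 (NP238), 830 (NP856) and 1259 (NP2810). All P cows but P904 were below every NP cow, and P904 was above 3 of the 5 NP cows. Among the 9 members that passed the filter FST varied most within the P group, where its highest value was 33.9 times its lowest, against 2.50 times in the NP group. NP minus P gave a log2 fold change of 2.45 ± 0.71 (SE), with an adjusted p-value of 0.364 by limma. The count models gave smaller log2 fold changes, 1.71 with DESeq2 (adjusted p-value 0.288) and 1.72 with edgeR (adjusted p-value 0.609). Without P617 and P1541 the log2 fold change was 2.12 ± 0.80 (SE), with an adjusted p-value of 0.356 by limma. Without P904 the log2 fold change was 2.96 ± 0.55 (SE) and the adjusted p-value was 0.0499 with limma. Leaving out the 1 cow that overlaps widens the separation of every gene in which it overlaps, and without P904 limma called 171 genes (1.13%) and the groups did not overlap in 487 genes (3.23%), as against 165 genes (1.09%) with all cows.

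GREM1 encodes gremlin, a BMP antagonist. It was represented by 0 to 5 reads per cow in P and by 3 to 10 reads per cow in NP. In normalized counts the P cows ranged from 0 to 5.03 with a median of 1.54, and the NP cows were at 3.04 (NP638), 4.05 (NP238), 7.06 (NP2541), 10.2 (NP2810) and 10.8 (NP856). Only P1753 overlapped the NP cows, and its removal leaves a gap of a fraction of a read. The mean over all cows was 4.25 normalized counts, below the filter, so GREM1 was not tested in the comparison above. With no filter on low values the log2 fold change was 1.53 ± 0.47 (SE) by limma, on counts this low. The unadjusted p-value was then under 0.05 and the adjusted p-value was 0.434.

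The 3 BMP ligands did not share a pattern. BMP4, a ligand made mainly by mesenchymal cells, was at 267 (P617), 376 (P2396), 389 (P1541), 408 (P1631), 482 (P1753) and 840 (P904) normalized counts in the P cows. In the NP cows it was at 693 (NP638), 713 (NP856), 758 (NP2541), 976 (NP238) and 1332 (NP2810). As for FST, P904 was the P cow that overlapped the NP cows, lying above 3 of them, and every other P cow was below all 5. The log2 fold change of BMP4 was 1.00 ± 0.27 (SE), and the adjusted p-value was 0.323 with limma and 0.104 with DESeq2. It was 1.20 ± 0.21 (SE) without P904, with an adjusted p-value of 0.046 by limma, and 0.79 ± 0.26 (SE) without P617 and P1541, with an adjusted p-value of 0.297. The 10 stroma markers were each higher in NP on average, 3 of them with an unadjusted p-value under 0.05, and their summed normalized counts were 135336 to 415542 in P and 279333 to 377778 in NP. In P904 they summed to 222820, below every NP cow, and in P1541 and P617 to 415542 and 365302. Without P617 and P1541 all 10 stroma markers had an unadjusted p-value under 0.05, and their median log2 fold change moved from 0.62 to 0.95. The summed endothelium markers were at 4542 (P617) to 8500 (P1753) in the P cows other than P904, and at 8618 to 15625 in NP. P904, at 14189, lay among the NP cows, as for BMP4 and FST. The part of the stroma and of the endothelium in the BMP4 and FST values was not tested.

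BMP2, which is known for its part in the decidual response of the uterine stroma, was at 64.0 to 273 normalized counts in the P cows with a median of 116. It was at 137 (NP856), 138 (NP638), 176 (NP2541), 180 (NP238) and 244 (NP2810) in the NP cows. P617 and P1541 were the 2 P cows above the lowest NP cow, and P617 was the highest cow of all. BMP2 had a log2 fold change of 0.38 ± 0.35 (SE), with an adjusted p-value of 0.829 by limma. Without P617 and P1541 it was 0.82 ± 0.25 (SE), with an adjusted p-value of 0.250. All 4 remaining P cows were then below all 5 NP cows, as held for 552 genes (3.66%) with those 2 cows left out, in either direction.

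BMP7, which is expressed in both epithelial and mesenchymal tissues, had the widest range in both groups among the 8 ligand and subunit genes described here. It was at 80.5 to 751 normalized counts in the P cows with a median of 315, and at 67.3 (NP2810), 89.3 (NP856), 90.0 (NP238), 240 (NP2541) and 633 (NP638) in the NP cows. The highest value was 9.33 times the lowest in P and 9.41 times in NP. The 3 cows highest for BMP7, P1541, P617 and NP638, were the 3 cows with the highest summed smooth muscle markers, and the 4 lowest, NP2810, P904, NP856 and NP238, were the 4 cows with the lowest. The log2 fold change of BMP7 was -0.94 ± 0.69 (SE) with an adjusted p-value of 0.796 by limma, and it was 0.43 ± 0.23 (SE) with an adjusted p-value of 0.890 when the mean log2 level of the smooth muscle markers was a covariate. The sign of the difference thus turned with that covariate, and it stayed negative without P617 and P1541, at -0.30 ± 0.67 (SE). Without NP638 it was -1.45 ± 0.62 (SE), with an unadjusted p-value under 0.05 and an adjusted p-value of 0.564.

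**Figure D2:**
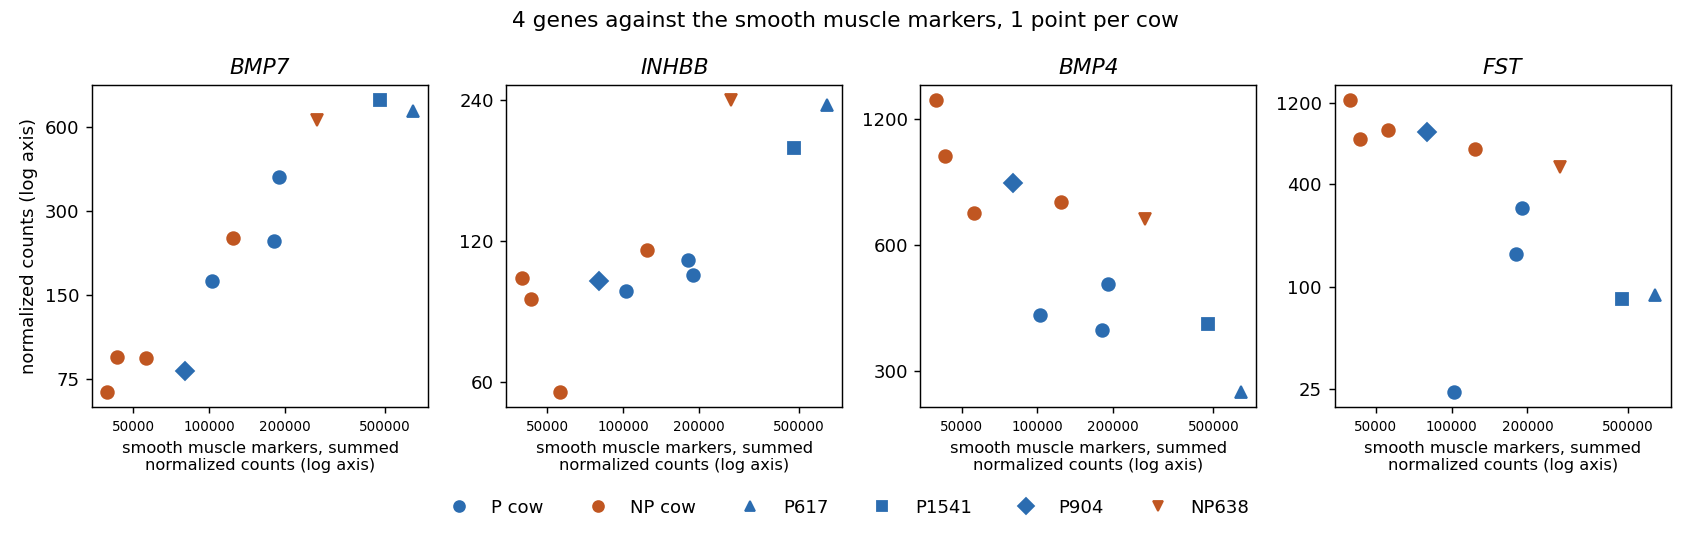
Normalized counts of BMP7, INHBB, BMP4 and FST (vertical axes, log scale) against the summed normalized counts of the smooth muscle markers (horizontal axes, log scale), with 1 point per cow coloured by group. BMP7 is lowest in the 4 cows with the least smooth muscle signal and highest in the 3 with the most, while BMP4 and FST are lower in P617 and P1541 than in every NP cow.

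Each of the 9 smooth muscle marker rows was lower in NP on average, and 2 of them had an unadjusted p-value under 0.05 with limma (7 without P904, 0 without P617 and P1541). The log2 fold change was -1.37 ± 0.64 (SE) for the row shared by ACTG2 and ACTA2, -1.48 ± 0.65 (SE) for DES, -1.35 ± 0.62 (SE) for MYH11 and -1.52 ± 0.74 (SE) for CNN1. The part of this difference in the results for BMP7, INHBB and the other ligands was not tested. With the smooth muscle score as a covariate, limma called 0 genes, with 890 (5.9%) at an unadjusted p-value under 0.05, of which BMP4 and FST were the members. Their log2 fold changes were then 0.61 ± 0.23 (SE) and 1.92 ± 0.79 (SE), with adjusted p-values of 0.739 and 0.812.

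Of the 3 TGF-beta ligands, TGFB1 was at 81.1 to 211 normalized counts in the P cows with a median of 132. It was at 157 (NP238), 186 (NP2541), 188 (NP638), 234 (NP856) and 273 (NP2810) in the NP cows. P904 and P1541 were above the lowest NP cow, and the other 4 P cows were below all NP cows. TGFB1 had a log2 fold change of 0.67 ± 0.25 (SE), or 1.59-fold, with an adjusted p-value of 0.514 by limma. Without P617 and P1541 it was 0.75 ± 0.28 (SE), with an adjusted p-value of 0.358. The unadjusted p-value of TGFB1 with limma rose above 0.05 without NP2810, without NP856 and with the smooth muscle covariate. TGFB1 encodes a ligand that is made by many cell types, leukocytes included, and the 9 leukocyte markers, 5 of which had an unadjusted p-value under 0.05, were each higher in NP on average, with summed normalized counts of 749 to 1698 in P and 1200 to 2166 in NP. The part of this in the TGFB1 value was not tested.

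TGFB2, which encodes a ligand known for its role in mesenchymal development, was at 192 (P1631), 210 (P2396), 288 (P904), 305 (P1753), 335 (P1541) and 417 (P617) normalized counts in the P cows. It was at 187 (NP638), 206 (NP2810), 209 (NP2541), 214 (NP856) and 218 (NP238) in the NP cows. The NP cows lay close together, their highest value being 1.17 times their lowest, whereas 4 P cows were above all of them and P1631 and P2396 lay within their range. TGFB2 was the 1 member with an unadjusted p-value under 0.05 that was higher in P, with a log2 fold change of -0.44 ± 0.19 (SE) and an adjusted p-value of 0.607 by limma. The unadjusted p-value rose above 0.05 in 9 of the 11 fits with 1 cow left out, all but those without P1631 or P2396, and also with limma-voom and with the smooth muscle covariate. Without P617 and P1541 it was -0.24 ± 0.16 (SE), with an adjusted p-value of 0.671.

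TGFB3 differed less between the groups. It was at 225 to 844 normalized counts in the P cows with a median of 385, and at 361 (NP856), 403 (NP238), 429 (NP2541), 455 (NP638) and 609 (NP2810) in the NP cows. P617 alone was above every NP cow. TGFB3 had a log2 fold change of 0.18 ± 0.30 (SE), with an adjusted p-value of 0.908 by limma, and it was 0.55 ± 0.21 (SE) without P617 and P1541, with an adjusted p-value of 0.361. Without those 2 cows 5 members had an unadjusted p-value under 0.05, namely TGFB1, TGFB3, BMP2, BMP4 and FST, all higher in NP, against 11.1% of all genes.

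Neither activin subunit had an unadjusted p-value under 0.05. INHBA, which encodes the subunit of activin A, was at 33.1 to 108 normalized counts in the P cows with a median of 59.9, and at 41.9 (NP856), 51.0 (NP2810), 58.7 (NP238), 66.7 (NP2541) and 72.0 (NP638) in the NP cows. The NP values lay inside the range of the P values. For INHBA the log2 fold change was 0.01 ± 0.31 (SE), with an adjusted p-value of 0.995 by limma. A standard error of this size leaves room for a difference in either direction.

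INHBB, which encodes the subunit of activin B, was at 93.6 to 234 normalized counts in the P cows with a median of 106. It was at 57.0 (NP856), 90.0 (NP238), 99.9 (NP2810), 114 (NP2541) and 240 (NP638) in the NP cows. NP638, P617 and P1541 were the 3 highest cows, as for BMP7, and the other 8 cows lay between 57.0 and 114. The log2 fold change was -0.26 ± 0.37 (SE), with an adjusted p-value of 0.886 by limma, and it turned to 0.37 ± 0.24 (SE) with the smooth muscle covariate and to 0.09 ± 0.35 (SE) without P617 and P1541.

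**Figure D3:**
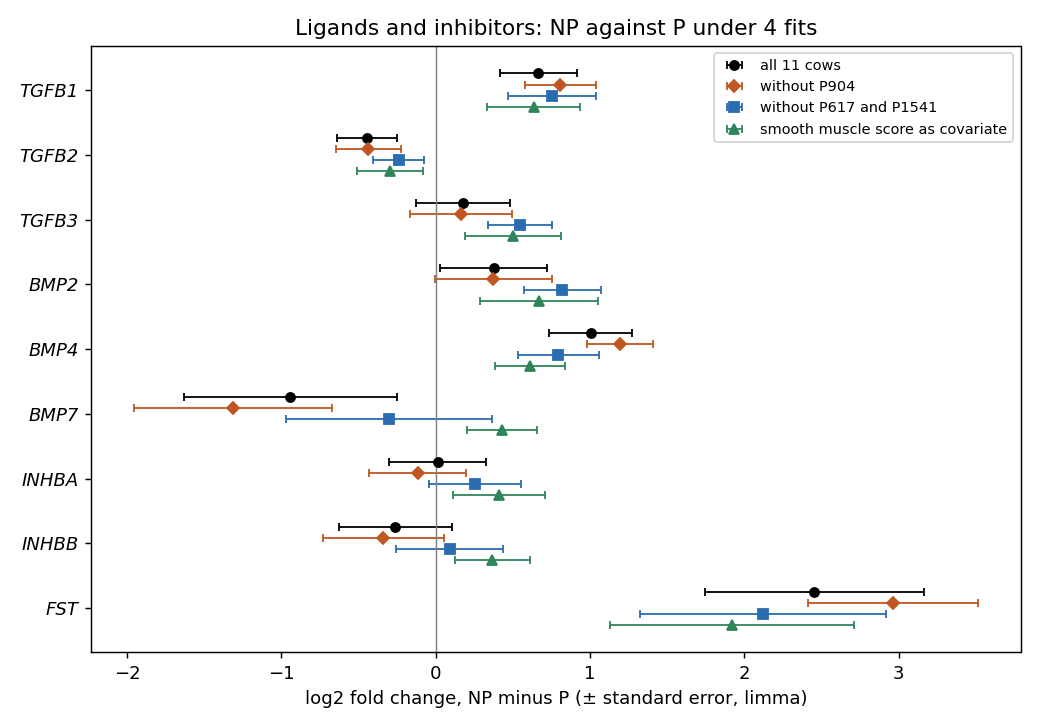
Log2 fold change of NP minus P (horizontal axis) for the 9 members that passed the filter on low values, with limma standard errors as bars, over all 11 cows, without P904, without P617 and P1541, and with the smooth muscle score as a covariate. TGFB1, BMP4 and FST lie to the right of 0 and TGFB2 to the left in the 4 fits, while BMP7, INHBA and INHBB lie on both sides.

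The balance of inhibitor to ligand transcripts was followed within each cow as a description, with no test. Such a ratio can be compared between cows, since the lengths of the 2 genes are the same in each, but its size has no meaning of its own. The ratio of FST to INHBA normalized counts was 0.724 (P1631), 0.777 (P1541), 1.55 (P617), 2.51 (P2396), 4.13 (P1753) and 22.9 (P904) in the P cows and 6.99 (NP638), 9.68 (NP2541), 12.7 (NP238), 19.8 (NP856) and 24.7 (NP2810) in the NP cows. Apart from P904, which was second only to NP2810, all P cows were below all NP cows. The ratio of FST to INHBB ranged from 0.256 to 2.86 in the P cows other than P904, was 8.23 in P904, and ranged from 2.09 to 14.6 in NP, so that NP638 overlapped the P cows. For the BMPs and GREM1 the log2 ratio, with 1 added to each value, ranged from 6.32 to 8.75 in P and from 5.92 to 7.60 in NP for BMP4, from 4.09 to 8.10 and from 3.55 to 5.17 for BMP2, and from 5.38 to 9.42 and from 2.61 to 7.29 for BMP7. The groups overlapped in all 3, and each rests on the few GREM1 reads.

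The genes most like each member were those with the highest Pearson correlation over the 11 cows on the log2 scale, among 10218 genes with a symbol and a mean of at least 100 normalized counts. The correlations are descriptions, and the cows share the differences in tissue makeup given above. FST was most like P2RY14 (r = 0.98), a row shared by LOC784147 and STEAP1 (0.98) and SUSD5 (0.96). BMP4 was most like P4HA3, BGN and EPB41L3 (0.97 each). BMP7 was most like ADAMTS15 (0.99), NPNT (0.99) and TNS1 (0.98). The genes most like TGFB1 were C23H6orf47 (0.97), LUM (0.95) and ARHGEF4 (0.94), those most like TGFB3 were COTL1 (0.98), CHST14 (0.98) and SEPN1 (0.97), and those most like BMP2 were PPT1 (0.95), CTSK (0.94) and OLFML3 (0.94). INHBB was most like GRIA4, TCF7L2 and LMO4 (0.93 each), and INHBA was less close to its nearest genes, PER2 (0.89), TMEM246 (0.88) and FAM114A1 (0.88). For the members so far named, r without P617 and P1541 was at least 0.82. TGFB2 was most like TP53I13 (0.93), RHOT1 (0.92) and NUP54 (0.91), and for these r fell to 0.77, 0.73 and 0.72 without P617 and P1541.

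The rest of the pathway was read from lists of 98 genes drawn up from general knowledge, with earlier results of these data known. Of the 98 genes 88 were found, and 73 rows passed the filter. Of the 73 rows, 14 had an unadjusted p-value under 0.05 with limma, all of them higher in NP, which is 19.2% against 7.84% of all genes. With limma 0 passed the adjusted threshold, while DESeq2 called 5 of the 73 rows, against 201 (1.33%) of all genes. Given how the lists were chosen, these shares are not independent evidence. The median log2 fold change over the 73 rows was 0.21. The 5 rows called by DESeq2 were BMP6, TGFBR2, ACVRL1, SMAD9 and PCSK6. The study also tested these same samples with DESeq2, so these calls are not independent evidence of a direction. The 9 endothelium markers were each higher in NP on average, 8 with an unadjusted p-value under 0.05, and their summed normalized counts were 4542 to 14189 in P, with P904 highest, and 8618 to 15625 in NP.

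**Figure D4:**
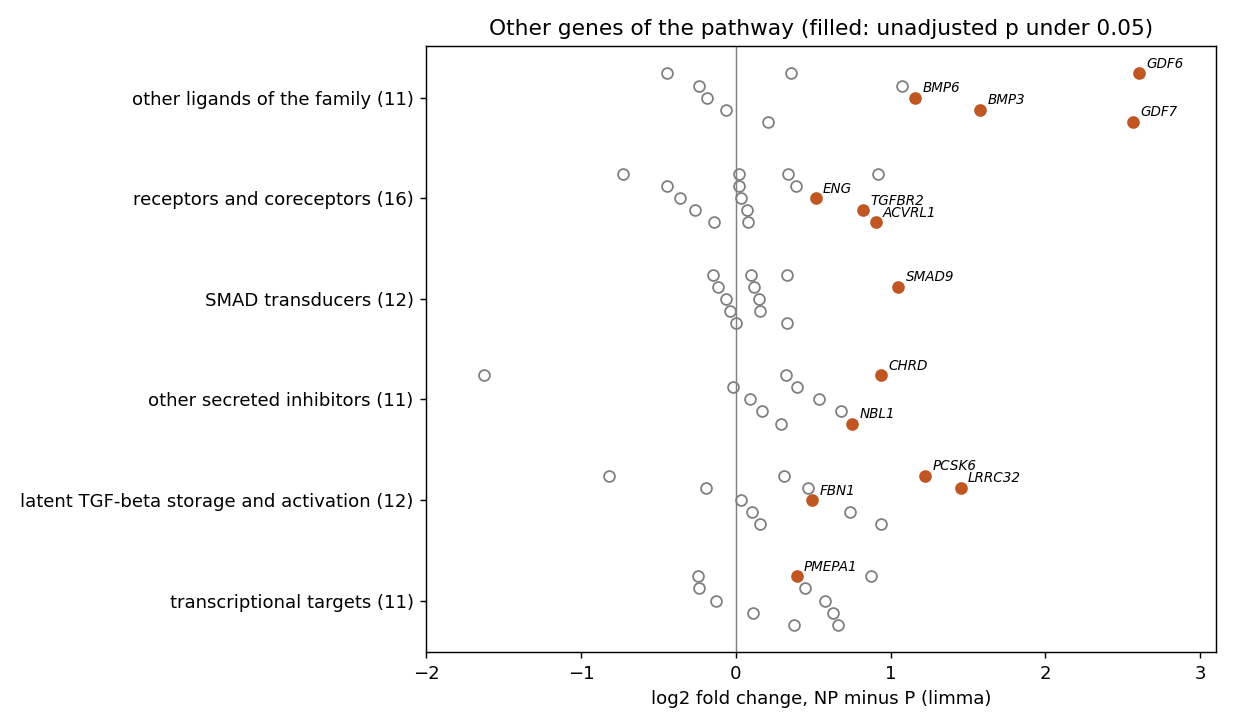
Log2 fold change of NP minus P by limma (horizontal axis) for the 73 other pathway rows tested, 1 point per row, by list with the number tested in brackets. The 14 filled and named points had an unadjusted p-value under 0.05, and all 14 lie to the right of 0, while the open points lie on both sides.

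Among the other ligands, 4 of 11 tested (36.4%, against 7.84% of all genes) were past an unadjusted p-value of 0.05. A further 13 rows, such as MSTN and NODAL, were below the filter. BMP6, a BMP known for its part in iron control, was at 31.9 to 49.3 normalized counts in P and at 42.6 (NP638), 73.7 (NP2541), 87.0 (NP238), 118 (NP856) and 154 (NP2810) in NP. Its P cows lay close together and NP638 alone fell among them, and the log2 fold change was 1.16 ± 0.31 (SE) with an adjusted p-value of 0.323 by limma and 0.019 by DESeq2. GDF6 and GDF7, BMP-type growth and differentiation factors, were at or near 0 in P617 and P1541. GDF6 was also low in P1631 (1.14) and P2396 (2.63). The log2 fold changes of GDF6 and GDF7 were 2.61 ± 0.81 (SE) and 2.57 ± 1.00 (SE). Without P617 and P1541 these were 1.72 ± 0.68 (SE) and 1.09 ± 0.28 (SE), and GDF7 was at 1.72 ± 0.60 (SE) without P617 alone. GDF7 was the 1 of the 2 without overlap, with 0 to 70.5 normalized counts in P and 86.2 to 171 in NP, whereas GDF6, with 0 to 24.9 in P and 10.1 to 36.7 in NP, was high in P904. BMP3, an antagonist-like BMP, was at 0 to 11.1 in P and at 10.2 to 17.2 in NP, with a log2 fold change of 1.58 ± 0.58 (SE).

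Of the 16 receptors and coreceptors tested, 3 (18.8%, against 7.84% of all genes) were past an unadjusted p-value of 0.05 and all 3 were higher in NP. TGFBR2, the type II receptor of TGF-beta, was at 2247 to 4515 normalized counts in P and at 4945 to 6542 in NP without overlap, and the log2 fold change was 0.82 ± 0.19 (SE), with an adjusted p-value of 0.264 by limma and 0.028 by DESeq2. ACVRL1, a type I receptor of endothelial cells, was at 561 to 1434 in P and 1249 to 1833 in NP, where P904 was the P cow that overlapped, and the log2 fold change was 0.91 ± 0.21 (SE), with an adjusted p-value of 0.264 by limma and 0.060 by DESeq2. ENG, the endothelial coreceptor endoglin, had a log2 fold change of 0.52 ± 0.18 (SE). The endothelium markers given above were also higher in NP on average, and the part of those cells in these 3 was not tested. The other type I and type II receptors did not pass: TGFBR1 had a log2 fold change of -0.14, BMPR1A of -0.44, BMPR1B of -0.36, BMPR2 of 0.08, ACVR1 of 0.07, ACVR1B of -0.26, ACVR2A of 0.04 and ACVR2B of 0.34. TGFBR3, the coreceptor betaglycan, had 0.39.

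Of the 12 SMAD transducers and their regulators, 1 (8.33%, close to the 7.84% of all genes) was past an unadjusted p-value of 0.05. SMAD9, a BMP-branch SMAD, was at 28.6 to 79.6 normalized counts in P and 75.1 to 147 in NP, with a log2 fold change of 1.05 ± 0.28 (SE) and an adjusted p-value of 0.326 by limma and 0.068 by DESeq2. Among the 11 other secreted inhibitors tested, 2 (18.2%, against 7.84% of all genes) were past an unadjusted p-value of 0.05. These were CHRD and NBL1, which both bind BMPs, with log2 fold changes of 0.94 ± 0.36 (SE) and 0.75 ± 0.28 (SE). The median over the 11 was 0.32.

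Of the 12 genes of latent TGF-beta storage and activation, 3 were past an unadjusted p-value of 0.05. PCSK6, a proprotein convertase that cleaves ligands of the family, was at 261 to 840 normalized counts in P and 725 to 1419.9 in NP with a log2 fold change of 1.22 ± 0.30 (SE), an adjusted p-value of 0.264 by limma and 0.039 by DESeq2, and P904 again was the highest P cow. LRRC32, which anchors latent TGF-beta on the cell surface, had a log2 fold change of 1.45 ± 0.56 (SE), with 31.6 in P617 and 545 in P904, against 414 to 558 in NP, and it had 0.73 ± 0.27 (SE) without P617 and P1541. FBN1, the microfibril protein fibrillin, had 0.49 ± 0.15 (SE). Of the 11 transcriptional targets, 1 (9.09%, close to the 7.84% of all genes) was past an unadjusted p-value of 0.05. This was PMEPA1, a feedback inhibitor of TGF-beta signalling, at 102 to 125 in P and 128 to 191 in NP without overlap. Its log2 fold change was 0.39 ± 0.16 (SE). Without P904, limma called 4 of the 73 pathway rows, namely ACVRL1, PCSK6, TGFBR2 and GDF6. In that fit it called 171 of all 15081 genes (1.13%), against 0 with all cows.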

How the data were processed

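RNA-Seq was analysed in endometrial biopsies from 6 P and 5 NP cows. Per the labels' processing notes and the methods, the authors trimmed paired-end reads, mapped them with Bowtie2 2.1.0 to UMD3.1, counted them per gene with HTSeq 0.5.4p2 and normalized with DESeq2 1.12.1. The use of strand is not given in the sources used here, so overlapping and antisense genes are uncertain. The deposited values are a signal, counts divided by a size factor per cow. In each cow 100% of the values were whole reads within 0.0001 of the count (of 1 read where the count was 0). Very high counts pass this check whatever their fraction, so it bears on the lower counts.

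The main test was limma 3.58.1 (lmFit, eBayes with trend) in R 4.3.3 on log2(value + 1), for genes with a mean of at least 5, and p-values were adjusted by Benjamini-Hochberg with a threshold of 0.1. The alternatives were count models of the recovered reads (edgeR 4.0.16, DESeq2 1.42.0 without a prior, limma-voom), other scalings, filters, pseudocounts and covariates, and leaving out cows. The fits were tested on simulated data. A mean of 5 rests on a few reads per cow, so counting error adds to the spread of low genes, GREM1 above all.

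The members and gene lists were chosen with earlier results of these data known. Named genes were the members, 12 receptors, pathway genes with an unadjusted p-value under 0.05, 4 smooth muscle genes and the 3 genes most correlated with each member; MSTN and NODAL were added after their values were seen. No sequences or coordinates were used here, because the reference at hand is of another assembly.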

Additional observations from a re-analysis of the deposited data

Results flagged for a closer look

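FST in the P cows was flagged because 1 cow lay far from the others. P904 was at 812.4 normalized counts and the next P cow, P1753, at 290.9, so the gap was 0.661 of the range of the group, above the critical value of Dixon's test for 6 samples, 0.625. The gap was taken on the linear scale and not on the log2 scale of the fits, where high values lie closer together. The flag therefore does not mark P904 as an outlier in the fits. Of the 20 groups examined (10 genes in 2 groups) this was the 1 flagged, and chance flags about 1 in 20.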

How the results depend on the processing

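The 9 members tested were refitted under 22 alternatives each, which gave 198 log2 fold changes: 187 kept their direction and their side of the threshold, 9 reversed and 2 passed it. TGFB1, TGFB2, TGFB3, BMP2, BMP4 and FST kept their sign in all 22. INHBA, close to 0, was -0.065 with edgeR, -0.077 with DESeq2 and -0.14 to 0.20 with 1 cow left out. BMP7 was 0.43 and INHBB 0.37 with the smooth muscle covariate, and INHBB was 0.090 without P617 and P1541. With 1 cow left out BMP4 ranged from 0.85 to 1.20 and FST from 1.96 to 2.96, and both passed the threshold only without P904. The cause was not tested. Genes called numbered 0 with limma and 201 with DESeq2, 17 without P617 and P1541, 88 with the epithelium covariate and 0 to 171 with 1 cow left out (171 without P904). Members with an unadjusted p-value under 0.05 numbered 4, and 2 with the smooth muscle covariate and 2 to 4 with 1 cow left out (2 without NP2810 or NP856). They numbered 3 with limma-voom, 5 with no filter on low values, where GREM1 was added, and 5 without P617 and P1541. Pathway genes numbered 14, and 23 without P617 and P1541. All genes at that level numbered 1182 (7.84%), and 1681 (11.1%) without P617 and P1541. They numbered 890 (5.9%) with the smooth muscle covariate, 1173 with limma-voom, 1347 with no filter on low values and 853 to 1548 with 1 cow left out. Genes without overlap between the groups numbered 165, and 552 without P617 and P1541 and 189 to 487 with 1 cow left out; members numbered 0, and 1 (BMP2) and 0 to 2 (GREM1 without P1753, BMP4 and FST without P904). No scaling moved the median of all genes by over 0.1 on the log2 scale. Each cow carries its own number, so no paired analysis was possible because the groups share no replicate numbers.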
